A study of Chlorocebus sabaeus with 45 samples.

Results

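The genes described here encode the signaling chains of the T cell receptor, its coreceptors and 3 further receptors of the T cell surface, and they were followed in the blood of vervet monkeys (*Chlorocebus sabaeus*) through capture and relocation. The 10 members were taken by symbol: CD3D, CD3E, CD3G, CD247, CD4, CD8A, CD8B, CD5, CD6 and IL7R. All 10 were found among the 33994 genes listed in the deposited tables, and all 10 were among the 18753 genes with enough fragments to be tested. The study sampled 15 wild-born juvenile males from St. Kitts, each from a different troop, and the same animals gave whole blood at each time point, which makes 45 libraries. Day 0 (Tp1) blood was drawn in the field shortly after trapping, under ketamine and xylazine. Day 3 (Tp2) and day 14 (Tp4, called day 15 in the series' own design text) blood was drawn from animals housed singly in quarantine, under dexmedetomidine and midazolam. No animal stayed untreated, so sedation, place and time since capture cannot be told apart in any difference between day 0 and a later day, whereas day 3 and day 14 shared housing and sedation. No genotype is given, and animals are numbered here as in the labels.

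The antigen-binding chains of the T cell receptor carry no signaling motifs of their own. They depend on the CD3 gamma, delta and epsilon chains (CD3G, CD3D, CD3E) and on the zeta chain (CD247), whose cytoplasmic tyrosine motifs are phosphorylated when antigen is bound. CD4 and CD8 bind MHC class II and class I molecules beside the receptor and bring the kinase LCK to it. CD8 occurs as an alpha/beta pair (CD8A with CD8B) on conventional cytotoxic T cells and as an alpha/alpha pair on many NK cells and some other lymphocytes, and CD4 is also made by monocytes. In African green monkeys, the group to which vervets belong, memory CD4 T cells are known to lose CD4 and to acquire CD8 alpha. CD5 and CD6 are related scavenger-type receptors that temper the receptor's signal, and IL7R is the alpha chain of the receptor for interleukin-7, which keeps resting T cells alive. In whole-blood RNA, fewer cells of a type and less RNA per cell cannot be told apart.

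Between 14038395 and 43107334 fragments per library fell on genes (median 23056836). Levels are given as scaled FPKM, that is, fragments per kilobase scaled to the library's depth (FPKM) and divided by the library's TMM factor, a scaling that sets the typical gene equal between libraries. The scaling matters on day 14, when the 20 most abundant genes took a median of 25.5% of a library's fragments, against 10.03% on day 0. Unscaled, the tested genes had a median log2 fold change of −0.36 on day 14 vs. day 0, and after scaling −0.02. The day 0 libraries of animals 11 and 15 stood apart before any comparison: all 10 members lay below the day mean in both, while the summed level of 8 neutrophil markers was 3082 and 4358 scaled FPKM there against a median of 636 over the 15 animals. These 2 libraries, together with the day 3 library of animal 8, were the 3 least similar to the other libraries, and the values that moved without them are given beside the results.

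The members covered a wide range of abundance, and each was detected in all 45 libraries. On day 0 the order of their mean log2 levels was IL7R, CD3G, CD247, CD3D, CD8A, CD8B, CD6, CD5, CD3E and CD4. Within animals IL7R exceeded CD3G by 0.93 ± 0.29 on the log2 scale (SD, n = 15), and it was the higher of the pair in 15 of 15 animals. CD247 and CD3D were neighbours that did not differ beyond their spread (0.16 ± 0.54), and the same held for CD8A and CD8B (0.10 ± 0.32) and for CD5 and CD3E (0.08 ± 0.26). CD4 came last, 1.96 ± 0.30 below CD3E in all 15 animals. It rested on the fewest fragments, from 168 to 1079 per library, against 10932 to 45097 for IL7R. On day 14 CD8A lay above CD8B by 0.65 ± 0.40 in 14 of 15 animals, and CD3D had moved above CD247 in the order, although those 2 still did not differ beyond their spread (0.21 ± 0.40).

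**Figure D1:**
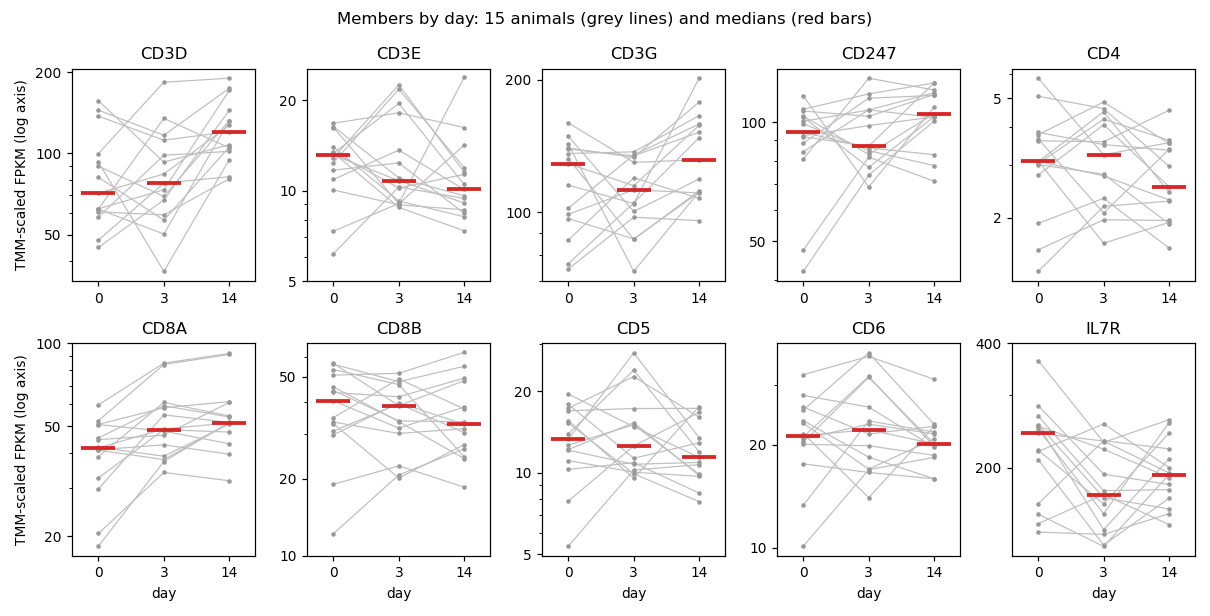
Level of each member (TMM-scaled FPKM, log axis) on days 0, 3 and 14, with 1 grey line per animal (15 animals) and a red bar at the median. CD3D and CD8A medians go up from day 0 to day 14 (71.2 to 120 and 41.8 to 51.6), the ranges of the days overlap for every member, and the lowest day 0 points of CD8A, CD8B and CD247 are animals 11 and 15.

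By limma, 0 of the 10 members passed an adjusted p of 0.05 on day 3 vs. day 0, where 12.2% of all tested genes did. At an unadjusted p under 0.05 there were 2, CD8A and IL7R. On day 14 vs. day 0, 2 of 10 passed, CD3D and CD8A, both higher, against 36.0% of all genes in either direction and 18.8% upward. On day 14 vs. day 3, 1 of 10 passed, CD3D, again higher, against 13.3% of all genes and 8.36% upward. The share of members called was thus below that of all genes in either direction in each comparison, and 2 and 1 of 10 upward were close to the upward shares of all genes on day 14. The median log2 fold change of the 10 members was 0.03, −0.06 and 0.02 in the 3 comparisons, beside 0.01, −0.02 and −0.02 over all tested genes. Day 0 libraries serve in both comparisons with day 0, so those are not independent of each other.

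The count depended on how the animals and the scaling were handled. With the animal as a block, which uses the pairing of the 3 samples of an animal, limma called 2 members on day 3 vs. day 0 (CD8A up and IL7R down; 19.1% of all genes), 3 on day 14 vs. day 0 (CD3D, CD8A and CD247, all up; 44.1%) and 2 on day 14 vs. day 3 (CD3D and CD3G, both up; 23.7%). An exact sign-flip test of the same within-animal differences, adjusted over all tested genes, called 1, 3 and 2 members (17.7%, 39.7% and 23.1% of all genes), IL7R being the one it did not share with the block. Without TMM the split on day 14 vs. day 0 turned from 2 up and 0 down to 0 up and 3 down (CD3E, CD4 and IL7R), while 7.79% of all tested genes were then called up and 41.8% down. With RNA integrity as a covariate, limma called 0 of 10 members in each of the 3 comparisons, with 1 member at an unadjusted p under 0.05 in each, where it called 7.65%, 19.9% and 6.04% of all tested genes. RNA integrity, taken from the sample list of the study, was itself higher in most animals on both later days than on day 0, and more so on day 14, so this covariate and the day cannot be fully told apart. With both the block and RNA integrity it called 2, 1 and 0 members, beside 14.8%, 21.7% and 9.79% of all genes, and without the 3 least similar libraries 1, 1 and 0, beside 8.93%, 35.6% and 7.59%. Between day 3 and day 14, 3 members were down without TMM, beside 35.2% of all genes, and 0 passed without the filter on low values, beside 4.88%, with 2 at an unadjusted p under 0.05.

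**Figure D2:**
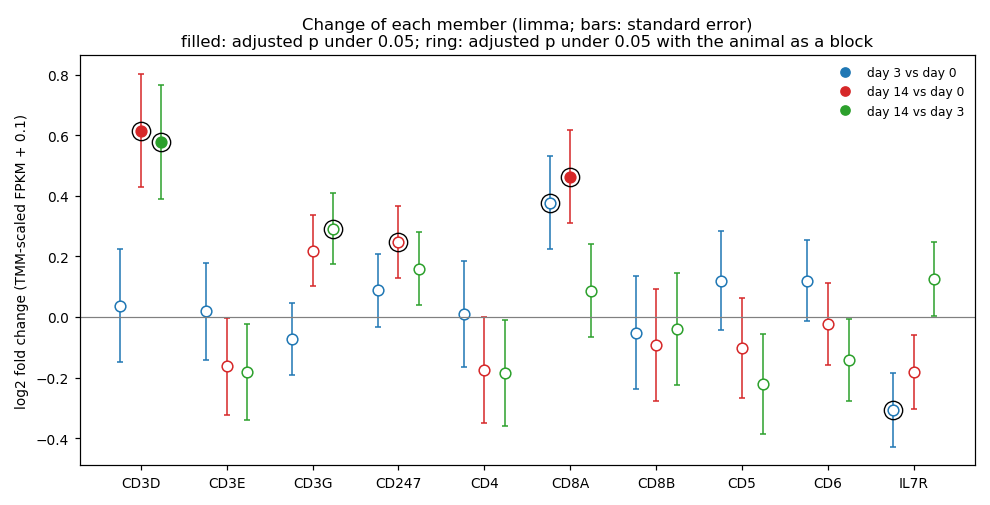
The log2 fold change of each member with its standard error from limma (y axis) for the 3 comparisons, with filled points for an adjusted p under 0.05 and black rings for an adjusted p under 0.05 once the animal is a block. CD3D and CD8A carry the 3 filled points, at 0.61 and 0.58 for CD3D and 0.46 for CD8A, and without TMM these are 0.19, 0.19 and 0.04 and the values of CD3G and CD247 on day 14 vs. day 0 turn negative.

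CD3D, the delta chain, rose by day 14 and had not done so on day 3. Its level ran from 44.8 to 157 scaled FPKM on day 0 (median 71.2), from 36.6 to 183 on day 3 (median 77.7) and from 80.5 to 190 on day 14 (median 120). The ranges overlapped, but the lowest day 14 animal was above the day 0 median. Day 14 exceeded day 0 by 0.61 ± 0.19 on the log2 scale (SE, limma, adjusted p = 0.00865) and was higher in 13 of 15 animals. Against day 3 it was higher by 0.58 ± 0.19 (limma, adjusted p = 0.0357) in 14 of 15 animals. On day 3 vs. day 0 the difference was 0.04 ± 0.19, with 7 animals higher and 8 lower. The rise from day 0 kept its call when any 1 animal was left out (adjusted p from 0.00397 to 0.0294) and without the 3 least similar libraries. The rise from day 3 lost its call without those libraries (0.53, adjusted p = 0.0672) and when animal 1, 2, 3, 8, 12 or 14 was left out. Both differences were positive but not called without TMM (0.19 and 0.19) and with RNA integrity as a covariate (0.50, adjusted p = 0.106, and 0.52, adjusted p = 0.0948).

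CD3G, the gamma chain, is encoded next to CD3D, and its values moved by less. It ran from 74.5 to 160 scaled FPKM on day 0 (median 129), from 73.5 to 137 on day 3 (median 113) and from 95.8 to 202 on day 14 (median 132), with broad overlap. The difference between day 14 and day 3 was 0.29 ± 0.12 (limma, adjusted p = 0.0863), with 12 of 15 animals higher, and it passed with the animal as a block (adjusted p = 0.0317) and by the sign-flip test (0.0133). Without TMM the same difference was −0.09. Day 14 vs. day 0 gave 0.22 ± 0.12 (adjusted p = 0.145), which became −0.21 without TMM and 0.12 without the 3 least similar libraries (adjusted p = 0.392).

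CD3E, the epsilon chain, did not follow CD3D. It was the scarcest of the CD3 chains, with 189 to 1050 fragments per library. Its level was 6.17 to 16.7 scaled FPKM on day 0 (median 13.1), 8.79 to 22.5 on day 3 (median 10.8) and 7.35 to 23.8 on day 14 (median 10.1). The highest day 14 value belonged to animal 15, whose day 0 value was the second lowest, and the next animal had 16.2. Day 14 vs. day 0 differed by −0.16 ± 0.16 (limma, adjusted p = 0.450), with 13 of 15 animals lower, by −0.30 (adjusted p = 0.120) without animal 15, and by −0.29 (adjusted p = 0.112) without the 3 least similar libraries. Without TMM the difference was −0.59 and passed (adjusted p = 0.0225).

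Since a ratio of 2 genes in one library does not depend on the scaling, the chains were also set against each other, as a description. The ratio of CD3D to CD3E had medians of 6.11, 7.95 and 11.8 on days 0, 3 and 14, and its log2 value differed within animals by 0.02 ± 0.71 (SD) between days 0 and 3, with 9 higher and 6 lower, and was higher on day 14 than on day 0 by 0.78 ± 0.86, in 13 of 15 animals. On day 14 vs. day 0 CD3D to CD3G was higher by 0.40 ± 0.54 in 12 of 15 animals, and CD247 to CD3E by 0.41 ± 0.56 in 13 of 15, against 0.11 ± 0.48 and 0.07 ± 0.62 on day 3 vs. day 0. The proteins of the CD3 transcripts join the receptor in fixed proportions. These ratios were higher on day 14 than on day 0 in most animals (12 or 13 of 15). Each mean difference was smaller than its SD on day 14 as on day 3, and none was tested. With the animal as a block and RNA integrity as a covariate the difference between the CD3D and CD3E changes on day 14 was 0.45, and without the 3 least similar libraries it was 0.84.

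Gene length moved with these values. Of all tested genes, those under 1000 bases had a median log2 fold change of 0.19 on day 14 vs. day 0, those from 1000 to 2000 bases 0.07, those from 2000 to 4000 bases −0.02 and longer genes −0.11. CD3D has 736 bases in the tables and CD3G 836, the shortest of the members, while CD3E has 1501 and CD4, the longest, 6192. CD3D lay above its length class, but 25.8% of the genes under 1000 bases had a larger change. CD8A, at 2885 bases, lay further from its class than CD8B, at 1826. The part of length in these changes was not tested.

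**Figure D3:**
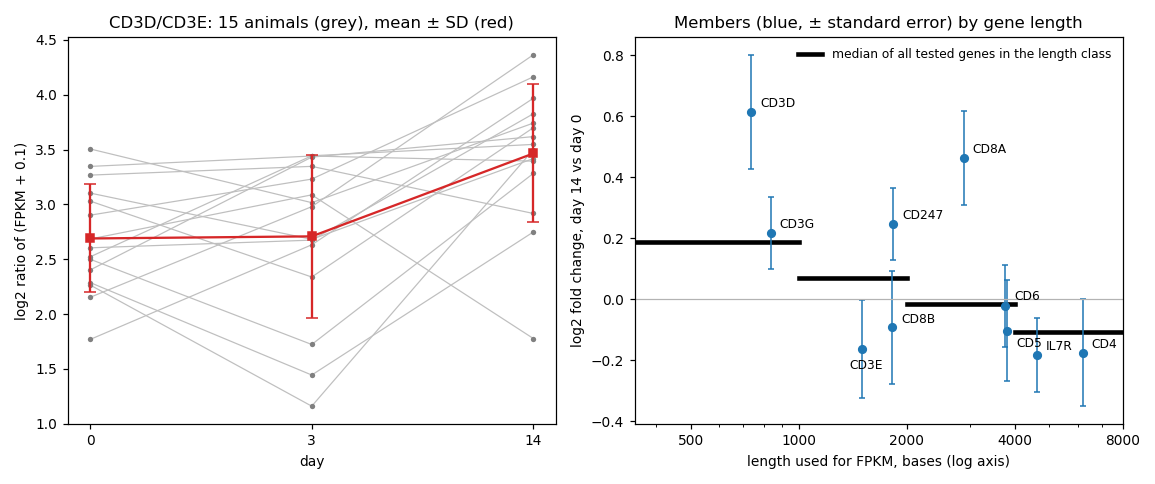
Left, log2 ratio of CD3D to CD3E by day in 15 animals (grey) with mean ± SD (red), higher on day 14 than on day 0 in 13 of 15. Right, log2 fold change on day 14 vs. day 0 with its standard error for each member against the gene length used for FPKM (log axis, bases), with black bars at the median of all tested genes of each length class (0.19, 0.07, −0.02 and −0.11); CD3D and CD8A lie above the bars of their classes.

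CD247 encodes the zeta chain, which also serves CD16 signaling in NK cells. Its level ran from 41.9 to 117 scaled FPKM on day 0 (median 94.3), from 68.6 to 129 on day 3 (median 87.0) and from 71.0 to 126 on day 14 (median 105). Animals 11 and 15 had the 2 lowest day 0 values, 41.9 and 47.5. Day 14 vs. day 0 differed by 0.25 ± 0.12 (limma, adjusted p = 0.101), with 12 of 15 animals higher. With the animal as a block it passed (adjusted p = 0.0437), as it did by the sign-flip test (0.0476). Without TMM it was −0.18, so the direction rests on the scaling. Without the 3 least similar libraries it was 0.10 (limma, adjusted p = 0.439).

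CD8A was higher after relocation in most animals. Its level ran from 18.4 to 59.8 scaled FPKM on day 0 (median 41.8), from 34.0 to 84.7 on day 3 (median 48.6) and from 31.8 to 91.9 on day 14 (median 51.6). Animals 4 and 2 had the 2 highest values on every day, and animals 11 and 15 the 2 lowest on days 0 and 3, so the groups overlapped while the animals largely kept their places. Day 14 exceeded day 0 by 0.46 ± 0.15 (SE, limma, adjusted p = 0.0157) and was higher in 13 of 15 animals. Day 3 vs. day 0 gave 0.38 ± 0.15 (limma, adjusted p = 0.09998), with 12 of 15 animals higher, and passed with the animal as a block (adjusted p = 0.00481) and by the sign-flip test (0.0194), but was 0.23 (adjusted p = 0.327) without the 3 least similar libraries. Days 14 and 3 differed by 0.09 ± 0.15, and by −0.30 without TMM. Without the 3 least similar libraries the difference between day 14 and day 0 was 0.31 (adjusted p = 0.0763), without TMM 0.04, and with RNA integrity as a covariate 0.36 (adjusted p = 0.159), none of which passed.

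CD8B, the beta chain, is encoded beside CD8A and was not called on either day. It ran from 12.2 to 56.5 scaled FPKM on day 0 (median 40.3), from 20.1 to 51.7 on day 3 (median 38.6) and from 18.5 to 62.4 on day 14 (median 32.7). The ranges overlapped almost fully. Day 3 vs. day 0 differed by −0.05 ± 0.19 and day 14 vs. day 0 by −0.09 ± 0.19 (limma, adjusted p = 0.903 and 0.732), with 9 and 10 of 15 animals lower. Without the 3 least similar libraries these differences were −0.24 and −0.28 (adjusted p = 0.398 and 0.178). Without TMM the day 14 difference was −0.52 (adjusted p = 0.0870).

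CD4 was low throughout and did not pass on either day. Its level ran from 1.33 to 5.82 scaled FPKM on day 0 (median 3.09), from 1.65 to 4.85 on day 3 (median 3.24) and from 1.59 to 4.55 on day 14 (median 2.54). Day 3 vs. day 0 differed by 0.01 ± 0.18 and day 14 vs. day 0 by −0.17 ± 0.18 (limma, adjusted p = 0.983 and 0.463), with 11 of 15 animals lower on day 14. Without the 3 least similar libraries the differences were −0.18 and −0.33 (adjusted p = 0.558 and 0.109). Without TMM the day 14 difference was −0.59 and passed (adjusted p = 0.0398). The summed level of 8 monocyte markers, from cells that also make CD4, had medians of 1514, 1635 and 1532 scaled FPKM on the 3 days. Over the 45 libraries, deviations from the day means ran against those of the monocyte markers for all 10 members (r from −0.67 to −0.33, with −0.49 for CD4), so this value was not particular to CD4. With the B cell markers CD5 had the highest r (0.57) and CD4 the next (0.54). These values share library and composition.

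The clearest change among the coreceptors was in the ratio of the CD8 chains. CD8B stood at 0.663 to 1.35 times CD8A on day 0 (median 0.873), at 0.377 to 1.09 times on day 3 (median 0.701) and at 0.393 to 1.07 times on day 14 (median 0.616). The animals in which it was above CD8A numbered 6 of 15 on day 0, then 2 and then 1. The groups overlapped, but every animal moved the same way. The log2 ratio fell by 0.43 ± 0.22 (SD, n = 15) from day 0 to day 3, lower in 15 of 15 animals, with single animals between −0.08 and −1.03. From day 0 to day 14 it fell by 0.56 ± 0.34, again lower in 15 of 15 animals. Both had a two-sided exact sign-flip p of 6.1e-05, the smallest that 15 animals can give, and an adjusted p of 0.000275 over the 9 ratio tests. Day 14 and day 3 differed by −0.13 ± 0.34, with 9 of 15 animals lower (exact sign-flip, adjusted p = 0.292). Both calls held with either other pseudocount, without the pairing by animal, with any 1 animal left out, and without animals 8, 11 and 15. Taken as the difference of the 2 genes' fitted changes, with no test, the values were −0.42 and −0.54 with the block and RNA integrity, and −0.47 and −0.59 without the 3 least similar libraries.

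CD8A also rose relative to CD4, and CD8B did not. The ratio of CD8A to CD4 ran from 7.04 to 27.4 on day 0 (median 12.2), from 8.04 to 36.0 on day 3 (median 17.1) and from 11.3 to 57.3 on day 14 (median 18.4), with animal 2 highest on each day. Its log2 value rose by 0.37 ± 0.51 (SD) to day 3 and by 0.62 ± 0.46 to day 14, each in 13 of 15 animals (exact sign-flip, adjusted p = 0.0350 and 0.0011). From day 3 to day 14 it rose by 0.26 ± 0.39 in 10 of 15 animals (exact sign-flip, adjusted p = 0.0470). With a pseudocount of 1 this last rise was 0.13 and not called (exact sign-flip, adjusted p = 0.302). Without the pairing by animal neither it nor the rise to day 3 was called (permutation test, adjusted p = 0.449 and 0.184). The day 3 call was lost when animal 1, 2, 3, 6, 7, 11, 12 or 14 was left out (values from 0.31 to 0.37), and the change from day 3 to day 14 when animal 2, 3, 4, 7, 8, 9, 11, 12, 13 or 14 was (0.21 to 0.25). The ratio of CD8B to CD4 had medians of 12.5, 12.1 and 13.2, and its log2 value changed by −0.06 ± 0.13 (SE) to day 3 and 0.07 ± 0.14 to day 14 (exact sign-flip, adjusted p = 0.635 for both). These errors leave room for changes of either sign. Lengths and mapping differ between the genes, so the ratios are not ratios of cell numbers.

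**Figure D4:**
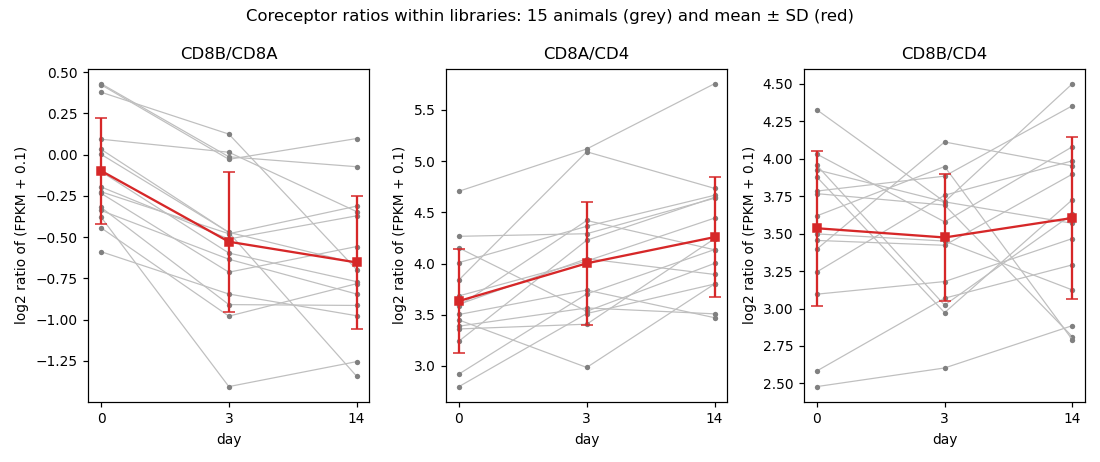
Log2 ratios of CD8B to CD8A, CD8A to CD4 and CD8B to CD4 (y axes, of FPKM + 0.1) on days 0, 3 and 14, with 1 grey line per animal (15 animals) and mean ± SD in red. CD8B/CD8A is lower than on day 0 in 15 of 15 animals on both later days, CD8A/CD4 is higher in 13 of 15, and CD8B/CD4 shows no common direction.

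Against CD3G, taken as a T cell reference, the 2 CD8 chains again parted, as a description. CD8A to CD3G was higher on day 3 than on day 0 in 14 of 15 animals, by 0.45 ± 0.25 (SD), and on day 14 in 11 of 15, by 0.25 ± 0.27. CD8B to CD3G was 0.02 ± 0.25 higher on day 3 and 0.31 ± 0.32 lower on day 14, when it was lower in 13 of 15 animals. CD8A thus gained on the CD3 gamma chain by day 3, while CD8B was lower relative to it on day 14, by less than the SD. CD3G was not fixed itself: on day 14 vs. day 0 it differed by 0.22 ± 0.12 and CD8B by −0.09 ± 0.19 (SE, limma, adjusted p = 0.145 and 0.732). The lower ratio of CD8B to CD3G on day 14 thus holds the difference in CD3G as well.

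Markers of NK cells, which can carry CD8 alpha without CD8 beta, had higher median summed levels on both later days. Of 9 listed markers 8 were tested, none had a median of 0 over the 45 libraries, and their summed level had medians of 225, 429 and 749 scaled FPKM on days 0, 3 and 14, with ranges of 94.8 to 593, 188 to 746 and 277 to 1347. By limma 2 of the 8 were up on day 3, where 6.02% of all tested genes were, and 6 by day 14, where 18.8% were. Under the block 4 were up on day 3 and 6 on day 14, beside 19.1% and 44.1% of all genes in either direction. The 2 on day 3 were PRF1 (0.90 ± 0.24, adjusted p = 0.0123) and GZMB (0.79 ± 0.27, adjusted p = 0.0410), cytotoxic granule proteins that CD8 T cells make too. Both also passed with the block (adjusted p = 0.000477 and 0.00828) and by the sign-flip test (0.00334 and 0.0253), and neither passed without the 3 least similar libraries (0.0543 and 0.0563) or without TMM (0.0642 and 0.101). KLRF1, an activating NK receptor, was higher by 1.32 ± 0.21 on day 14 (adjusted p = 6.57e-06). Between day 3 and day 14, where CD8A differed by 0.09 with 8 animals higher and 7 lower, the median log2 fold change of the 8 NK markers was 0.59 (0.22 without TMM), 2 of them were up (4 with the block), beside 8.36% of all genes (23.7% in either direction with the block), and KLRF1 was higher by 0.80 in 15 of 15 animals (adjusted p = 0.0121, and 0.42 with adjusted p = 0.163 without TMM). NCAM1 (CD56) and NCR1 (NKp46), receptors by which human NK cells are known, passed on neither day, with 0.00 and 0.16 for NCAM1 and 0.21 and 0.44 for NCR1. Whether these 2 mark the NK cells of vervet blood was not tested. Over the 45 libraries the deviations of the NK markers had r = 0.56 with CD8A, 0.40 with CD247 and 0.12 with CD8B. Across the 15 animals, the log2 ratio of CD8B to CD8A had Pearson r = −0.17, −0.50 and −0.64 with the mean of the NK markers on days 0, 3 and 14 (permutation p = 0.536, 0.0602 and 0.0122, adjusted over the 3 days 0.536, 0.0904 and 0.0365). Spearman's rho was −0.14, −0.35 and −0.45 (permutation p = 0.633, 0.205 and 0.0943, adjusted 0.633, 0.308 and 0.283). Without the 2 animals farthest from the median of the NK markers r was −0.16, −0.39 and −0.38, so the day 14 relation rested in part on those animals. The part of NK cells in the CD8A change was not tested further.

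CD5 and CD6, which are encoded side by side, were not called by limma in any of the 3 comparisons after scaling. CD5 ran from 5.36 to 19.5 scaled FPKM on day 0 (median 13.3), from 9.55 to 27.7 on day 3 (median 12.6) and from 7.83 to 17.6 on day 14 (median 11.4). CD6 ran from 10.1 to 32.1 (median 21.3), from 14.0 to 37.2 (median 22.2) and from 15.9 to 31.1 (median 20.2). Animal 11 had the lowest day 0 value of both, and all ranges overlapped. On day 14 vs. day 0 CD5 differed by −0.10 ± 0.16 and CD6 by −0.02 ± 0.13 (limma, adjusted p = 0.663 and 0.912), with 10 and 11 of 15 animals lower, and by −0.25 and −0.15 without the 3 least similar libraries (adjusted p = 0.162 and 0.334). On day 14 vs. day 3 they differed by −0.22 ± 0.16 and −0.14 ± 0.13 (adjusted p = 0.370 and 0.4997), and without TMM by −0.60 and −0.52, which passed (adjusted p = 0.0385 and 0.0450). The ratio of CD5 to CD6 had medians of 0.599, 0.605 and 0.579, and its log2 value changed by −0.08 ± 0.22 (SD) to day 14.

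IL7R, the most abundant member, had its lowest median on day 3. It ran from 140 to 363 scaled FPKM on day 0 (median 242), from 129 to 255 on day 3 (median 172) and from 146 to 261 on day 14 (median 192). The highest day 0 value, in animal 10, was outside the range of both later days, though most animals overlapped. Day 3 vs. day 0 differed by −0.31 ± 0.12 (limma, adjusted p = 0.0934), with 12 of 15 animals lower. It passed with the animal as a block (adjusted p = 0.0279) and without the 3 least similar libraries (−0.37, adjusted p = 0.0444), and the sign-flip test gave an adjusted p of 0.0690. On day 14 vs. day 0 the difference was −0.18 ± 0.12 (limma, adjusted p = 0.252), with 10 of 15 animals lower, −0.27 without the 3 least similar libraries (adjusted p = 0.0807) and −0.61 without TMM (adjusted p = 0.00309). Relative to CD3G, IL7R was lower by 0.23 ± 0.33 (SD) on day 3 in 12 of 15 animals and by 0.40 ± 0.40 on day 14 in 13 of 15.

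The spread of the members between animals on day 0 depended on animals 11 and 15. Over all animals the between-animal SD of the log2 level was smaller on day 14 than on day 0 for 9 of 10 members, CD3E being the exception, beside 57.9% of all tested genes. The median SD of the members was 0.45 on day 0 and 0.38 on day 14. Without animals 11 and 15 it was 0.28 and 0.34, and the day 14 SD was smaller for 2 of 10 members, beside 51.9% of all genes. Both animals stood out by low day 0 values of these same members. A narrower day 0 spread without them was thus largely fixed in advance, and the share of all genes is no like comparison. The day 0 spread of the T cell genes was wide only with these 2 libraries, in which neutrophil markers were high. The day 0 monocyte sum was also highest in animal 11, at 7791 scaled FPKM against a median of 1514. Animal 7 had a day 0 neutrophil sum of 4042, and 9 of its 10 members lay below the day mean, but by less (a mean of −0.36 SD, against −2.28 for animal 11 and −1.92 for animal 15).

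How the members varied together between libraries is described here by Pearson r of the deviations from each day's mean over the 45 libraries, which share composition and depth between genes. CD5 and CD6 had r = 0.87 and CD3E and CD5 0.80. CD247 went with CD8A (0.80) and CD8B (0.79), and CD3G with CD8B (0.78). These groups ran into each other: CD6 had r = 0.68 with CD8A and 0.61 with CD247, above its 0.54 with CD3E. CD3D and IL7R were less tied to these groups. CD3D had r = 0.58 with CD3G, 0.46 with IL7R and 0.45 with CD8B, but 0.27 with CD247, 0.15 with CD3E, 0.05 with CD8A and −0.07 with CD6. IL7R had its highest r with CD3G (0.49), and only 0.07 with CD5 and 0.04 with CD6. CD4 had its highest r with CD5 (0.59) and CD3E (0.57), and only 0.24 with CD8A.

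**Figure D5:**
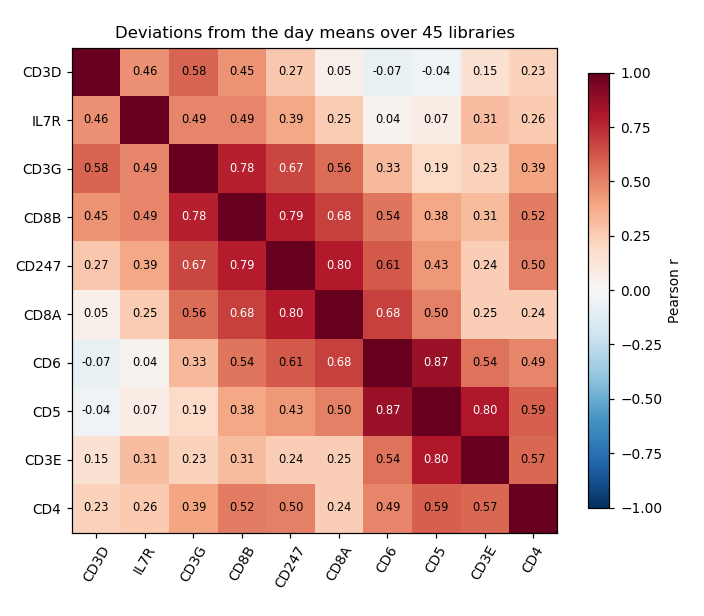
Pearson r between members of their deviations from the day means over 45 libraries (colour scale from −1 to 1, values printed in the cells). The values among CD3E, CD5 and CD6 are 0.54 to 0.87 and those among CD3G, CD8B, CD247 and CD8A 0.56 to 0.80, CD6 also has 0.68 with CD8A and 0.61 with CD247, and CD3D has values near 0 with CD5, CD6 and CD8A.

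The same measure was used to name the 5 genes nearest to 3 of the patterns among all tested genes. Nearest to CD8A were PRKCH (r = 0.88), a protein kinase C, SERPINB9 (0.87), the inhibitor of granzyme B, FYN (0.86), a kinase of the T cell receptor pathway, CLIC5 (0.85) and RASGEF1A (0.84). Nearest to CD4 were MTHFD1L (0.80), RCAN3 (0.78), EDAR (0.78), LZTS2 (0.75) and MORC2 (0.74). Nearest to the mean of the standardized CD3D, CD3E and CD3G values were RPL22 (0.75), a ribosomal protein, RDH14 (0.74), LOC103246597 (0.74), ADSL (0.72) and ZNF32 (0.72).

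Downstream of the receptor, most genes of the signaling pathway that passed the test were lower in each comparison. Of 48 listed kinases, adaptors, phosphatases and costimulatory receptors 45 were matched and tested. On day 3 vs. day 0, 1 rose and 10 fell (24.4%), where 6.02% of all tested genes rose and 6.19% fell, and the list's median log2 fold change was −0.03. By day 14, 2 had risen and 15 had fallen relative to day 0 (37.8%), beside 18.8% and 17.2% of all genes, with a median of −0.15. Between day 3 and day 14, 2 rose and 6 fell (17.8%), beside 8.36% and 4.98% of all genes, with a median of −0.06. With the animal as a block the counts were 3 up and 12 down, 6 up and 15 down, and 2 up and 9 down, beside 19.1%, 44.1% and 23.7% of all genes, so that on day 14 the list's share was close to that of all genes. Without TMM 1 was up and 28 were down on day 14 vs. day 0, beside 7.79% and 41.8% of all genes, and 0 up and 23 down on day 14 vs. day 3, beside 3.23% and 35.2%. With RNA integrity as a covariate 7, 9 and 1 of the 45 were called, beside 7.65%, 19.9% and 6.04% of all genes. The count between day 3 and day 14 changed when single animals were left out. It was 2 without animal 8, 3 without animal 2, 3, 9 or 12, 4 without animal 1, and 5 without animal 4 or 14 or without the 3 least similar libraries. Of all tested genes 2502 were called there with all animals. This became 794 without animal 8, 1214 to 1447 without animal 2, 3, 9 or 12, and 2472 without animal 4. The day 3 count was 7 without animal 2, 7 or 11. Of all tested genes 1367, 1713 and 1595 were then called, against 2288 with all animals. Most of these lower counts thus came with fewer calls among all genes.

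PAG1, the membrane adaptor that holds the inhibitory kinase CSK near the receptor, ran from 56.9 to 86.6 scaled FPKM on day 0 (median 73.0) and from 32.2 to 60.03 on day 14 (median 41.4), a fall of 0.72 ± 0.09 on the log2 scale (limma, adjusted p = 5.62e-07) in 15 of 15 animals. It was already lower on day 3 (−0.47 ± 0.09, adjusted p = 0.00125), also in 15 of 15 animals. CBL, a ubiquitin ligase that removes active receptors, fell by 1.12 ± 0.19 by day 14 (adjusted p = 1.42e-05). MALT1, a scaffold and protease on the way to NF-kB, fell by 0.38 ± 0.08 (adjusted p = 0.000101) and LCP2 (SLP-76), the adaptor phosphorylated by ZAP70, by 0.74 ± 0.15 (adjusted p = 0.000199), each in 14 of 15 animals.

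GRAP2 (GADS), the adaptor that joins LCP2 to LAT, went the other way. It ran from 10.9 to 46.0 scaled FPKM on day 0 (median 27.9) and from 25.8 to 84.1 on day 14 (median 49.2), a rise of 0.87 ± 0.18 (limma, adjusted p = 0.000152) in 14 of 15 animals, and of 0.53 ± 0.18 on day 3 (adjusted p = 0.0390), a call lost for 8 of the 15 animals left out and without the 3 least similar libraries (0.45, adjusted p = 0.0949). CD2, an adhesion receptor of T and NK cells, stood at the threshold, 0.29 ± 0.12 higher on day 14 (limma, adjusted p = 0.0499), in 11 of 15 animals. It also passed by the sign-flip test (adjusted p = 0.0240). Its call was lost with median-of-ratios factors (adjusted p = 0.0614), a pseudocount of 0.01 (0.0512), no filter (0.0795), RNA integrity as a covariate (0.18, adjusted p = 0.405), without the 3 least similar libraries (0.23, adjusted p = 0.130) and for 9 of the 15 animals left out, and without TMM the difference was −0.13. On day 3 the lowest adjusted p after PAG1 belonged to PTPRC (CD45), the phosphatase of all leukocytes (−0.57 ± 0.11, limma, adjusted p = 0.00138), ICOS, a costimulatory receptor (−0.55 ± 0.12, adjusted p = 0.00204), and FYB, an adaptor (−0.46 ± 0.11, adjusted p = 0.00559). ICOS was higher again on day 14 than on day 3, in 14 of 15 animals (0.38 ± 0.12, adjusted p = 0.0283), a call lost for 7 of the 15 animals left out, with RNA integrity (0.37, adjusted p = 0.0612) and without TMM (−0.0028).

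Several of these genes are not confined to T cells, and markers of other blood cells changed in the same comparisons. On day 3 vs. day 0, where 6.02% of all tested genes rose and 6.19% fell, 5 of 8 neutrophil markers fell, and 7 of 7 platelet, 5 of 8 erythroid and 3 of 8 monocyte markers rose, with 0 of 7 B cell markers called. All 8 neutrophil markers fell on day 14 vs. day 0 (median log2 fold change −1.31), and all 8 erythroid markers rose (2.85). Of the monocyte markers 2 of 8 and of the B cell markers 2 of 7 fell, while 3 of 7 platelet markers rose, beside 18.8% of all genes up and 17.2% down. Between day 3 and day 14, 3 of 7 B cell (median log2 fold change −0.65), 2 of 8 monocyte (−0.55) and 3 of 7 platelet markers (−0.85) fell and 3 of 8 erythroid markers (1.09) rose, with 0 of 8 neutrophil markers called (−0.19), beside 8.36% of all genes up and 4.98% down. Under the block 7 of 8 neutrophil markers fell and 7 of 8 erythroid markers rose by day 3 relative to day 0. In the same fit 5 of 7 platelet markers rose by day 14 relative to day 0. From day 3 to day 14, 6 of 8 monocyte and 5 of 7 B cell markers fell in that fit. The block called 19.1%, 44.1% and 23.7% of all tested genes in either direction in these 3 comparisons. No marker on these lists had a median of 0 over the 45 libraries. LCP2, PTPRC and CBL are also used by myeloid cells. The part of these cells in the pathway's changes was not tested.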

How the data were processed

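The authors aligned the paired-end reads of stranded, ribosome- and globin-depleted libraries with STAR, counted fragments per gene with HTSeq (versions not given in the sources used here), and deposited FPKM, with 1 table per library and gene symbols as names. Whole fragments and gene lengths were recovered from the FPKM steps for 100% of the 33635 genes above 0 (tolerance 0.01 fragments plus 3e-07 of the count), which gave each library's depth. Genes over 0.5 CPM in at least 3 libraries were tested, a limit of 7.02 to 21.6 fragments. FPKM were divided by TMM factors computed from the recovered fragments, 0.1 was added, and log2 values were fitted with limma 3.58.1 in R 4.3.3 (all 45 libraries, one mean per time point), with Benjamini-Hochberg adjustment over the 18753 tested genes at a threshold of 0.05. A fold change on this scale understates the change of low genes. Ratios were tested on unscaled FPKM by flipping the signs of the 15 within-animal differences in every way (exact, two-sided sign-flip test), adjusted over 9 tests, and relations to NK markers with 100000 permutations. The scripts were tested on simulated data. The labels name the animal of each sample, so samples were paired by animal; deviations of one animal's samples correlated at a mean r of 0.33 (lowest −0.04), against −0.04 between animals.

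Alternatives were the animal as a block, RNA integrity as a covariate (from the study's sample list), both, no TMM, median-of-ratios factors, other pseudocounts, no filter, a mean-variance trend, voom on the recovered fragments and leaving out each animal. The genome-wide sign-flip test and leaving out the 3 least similar libraries were added after seeing the data. The members and gene lists were chosen with earlier results of these data known. All members are named; of the signaling list, the 4 genes per direction with the lowest adjusted p on day 14 and on day 3 vs. day 0 are, and ICOS on day 14 vs. day 3 and the NK markers KLRF1, PRF1, GZMB, NCAM1 and NCR1 were chosen after their values were seen. The symbols of the T cell receptor constant chains (6 listed) and of TRAT1, SLA2 and SH2D1A were not matched and are not analysed here. Counting used strand-specific libraries, but the strand setting is not stated, and no sequencing batch is given.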

Additional observations from a re-analysis of the deposited data

How the results depend on the processing

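The fall of the CD8B/CD8A log2 ratio on both later days and the rise of CD8A/CD4 on day 14 kept direction and call under every alternative in which they were tested. Without TMM CD2 on day 14 vs. day 0 turned from 0.29 to −0.13 and ICOS on day 14 vs. day 3 from 0.38 to −0.0028. CD247 on day 14 vs. day 0 (−0.18) and CD3G on day 14 vs. day 3 (−0.09) also turned negative, both called only with the animal as a block or by the sign-flip test. With each animal left out in turn, CD8B/CD8A ranged from −0.45 to −0.39 on day 3 and from −0.59 to −0.50 on day 14, CD8A/CD4 from 0.31 to 0.44 on day 3 over all 15 (call lost for 8), from 0.57 to 0.68 on day 14 and from 0.21 to 0.30 between days 3 and 14 (lost for 10), the members called from 0 to 0, 2 to 2 and 0 to 1 (day 3 vs. day 0, day 14 vs. day 0, day 14 vs. day 3), and the signaling genes called from 7 to 11, 13 to 17 and 2 to 11. In the fits with 1 animal left out, all tested genes called ranged from 1367 to 2358, 5895 to 6903 and 794 to 3113 in the 3 comparisons. The CD8A/CD4 calls between days 3 and 14 were also lost with a pseudocount of 1 (0.13) and without the animals of the 3 least similar libraries (0.26), and without the pairing by animal (no replicate block) on day 3 (0.37, adjusted p = 0.184) and between days 3 and 14 (0.26, adjusted p = 0.449, permutation tests). With the animal as a replicate block 2 members were called on day 3 vs. day 0 and 2 between days 3 and 14, with CD247 added on day 14 vs. day 0, and the block changed no other member's call. With RNA integrity 0 members were called on day 14 against either earlier day, and 7, 9 and 1 signaling genes in the 3 comparisons. With block and RNA integrity 2, 1 and 0 members were called, and 9 and 2 signaling genes on day 14 against days 0 and 3 (21.7% and 9.79% of all genes). Without TMM 3 members were called on day 14 vs. day 3, and 29 and 23 signaling genes on day 14 against days 0 and 3. Of all 18753 tested genes 9290 and 7206 were then called in either direction. Without the filter 0 members were called on day 14 vs. day 3. Without the 3 least similar libraries the members called were 1, 1 and 0, with 5 signaling genes on day 14 vs. day 3, and the sign-flip test called 1 member on day 3 and 2 on day 14 vs. day 3. The causes were not tested. Depth limits CD4 and CD3E most, with as few as 168 and 189 fragments in a library, and the intervals above cover the spread between animals sampled once per day.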
